A study of Mus musculus with 4 samples.

Results

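Galanin neurons were taken from the P7 hypothalamus by a rule on raw counts: a cell had to hold at least 8 UMIs of Gal, at least 2 of Stmn2, at most 9 of Ghrh and at most 9 of Agrp. UMIs tag single RNA molecules at capture, and the counts are of molecules. The rule found 187 cells of the 8917 cells at P7 and of the 43261 cells in the series. These 187 Gal cells were chosen by their Gal, Stmn2, Ghrh and Agrp counts, so the levels of those 4 genes describe the choice and are not results.

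All animals were C57BL/6J mice carrying Rax-CreERT2 and the Ai14 reporter, with 1 sample at each of the ages titled E11, E14, P0 and P7 (the age labels of E11, E14 and P7 are slightly later than the titles). Tamoxifen had been given before the first age, on a day that the labels do not state alike, and live tdTomato-positive cells of the dissected hypothalamus were sorted and captured on the 10x Genomics platform. Because the Rax promoter drives the Cre recombinase, the cells descend from neuroepithelium in which Rax was active, and hypothalamic neurons of other origin are outside the sample. The number of animals behind each sample is not given in the sources used here.

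Galanin is a neuropeptide that acts through receptors coupled to G proteins, encoded by Galr1, Galr2 and Galr3. Hypothalamic galanin neurons are known from the arcuate, dorsomedial, paraventricular and preoptic areas, among others, where they have been linked to feeding, sleep, parental behaviour and pituitary hormone release. Many release GABA, which needs the synthesizing enzymes encoded by Gad1 and Gad2 and the vesicular transporter encoded by Slc32a1, and galanin is often made beside other peptides. Gal itself lies at chr19:3409915-3414544 on the minus strand (mm10, GENCODE M21).

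In the 187 Gal cells, Gal ran from 8 to 255 UMIs per cell, with a median of 21 and quartiles of 12.5 and 38. Their total UMIs ran from 4024 to 48245 (median 24518), and their Stmn2 from 3 to 220 (median 53). Stmn2 encodes a tubulin-binding protein of growing neurons, and all 288 P7 cells with at least 8 Gal UMIs also passed its minimum. No gap in the counts marks the minimum of 8: among P7 cells with at least 2 Stmn2 UMIs, 19 held 5 Gal UMIs, 13 held 6, 8 held 7, 7 held 8, 15 held 9 and 17 held 10. Just inside the limit, 15 of 20 cells with 8 or 9 Gal UMIs held a UMI of Gad1, Gad2 or Slc32a1, and 8 a UMI of the glutamate transporter gene Slc17a6. Just outside it, 15 and 10 of 20 cells with 6 or 7 did.

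Ghrh, the gene of growth hormone-releasing hormone, divided the cells with Gal far more sharply. Of the 288 cells with at least 8 Gal UMIs, 131 held no Ghrh, 52 held 1 or 2 UMIs, 4 held 3 to 9, 3 held 10 to 16 and 98 held 17 or more, up to 899. The limit on Ghrh thus removed 101 cells, whose median was 335 Ghrh UMIs, and few cells lay near it. Most of the cells that the limit sets apart held Gal: 101 of 116 cells with at least 10 Ghrh UMIs (called Ghrh cells from here on) held at least 8 Gal UMIs. The limit on Agrp, a feeding peptide, removed 0 cells, since none of the 132 cells with at least 10 Agrp UMIs (Agrp cells) held more than 4 of Gal.

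**Figure D1:**
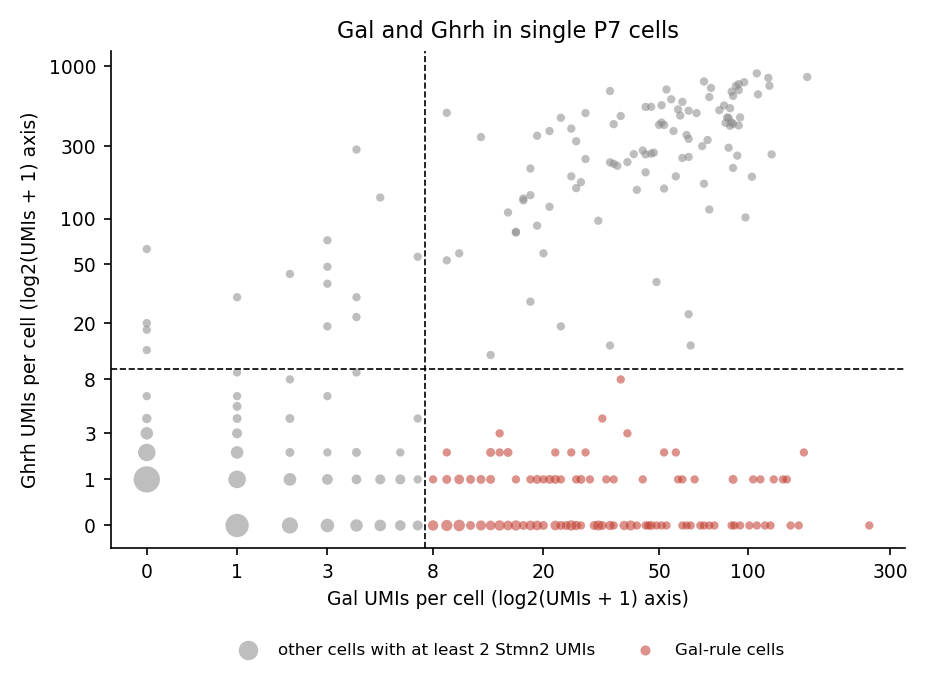
UMIs of Gal (x axis) and Ghrh (y axis) in single P7 cells with at least 2 Stmn2 UMIs, both on log2(UMIs + 1) axes, with larger points for more cells, dashed lines at the limits of the rule, and cells that lack both genes not drawn. The 187 Gal cells (red) lie at 0 to 8 Ghrh UMIs, and 101 further cells with at least 8 Gal UMIs lie above the Ghrh limit.

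The name of these cells was checked against Gad1 and Slc32a1, which the rule did not use. At least 1 UMI of Gad1 was found in 154 of the 187 cells, of Gad2 in 146 and of Slc32a1 in 145, and 134 cells held all 3. After every cell was thinned to 5000 UMIs, which left out 2 shallower cells, 81.6% of 185 Gal cells held a UMI of any of the 3 genes (exact Clopper-Pearson 95% interval 75.3 to 86.9%; 85.6% unthinned). The same thinned share was 38.7% in the 3897 other P7 neurons, defined by at least 2 Stmn2 UMIs and counts of Gal, Ghrh and Agrp below those of the 3 selected groups. Of these 3897 cells, 43.9% also held glial markers above a limit given below. The thinned share was 90.3% in the Ghrh cells and 93.9% in the Agrp cells. In 58 P7 cells with oligodendrocyte markers and no Stmn2, which should lack these genes, it was 3.57% (17.2% unthinned, at a median of 12276 UMIs). Intervals here and below cover counting error within 1 sample and not the spread between animals.

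The label of GABA neurons held for most of the cells and not for all. With a minimum of 2 UMIs, 143 cells (76.5%, 95% interval 69.7 to 82.4%) held the GABA genes without Slc17a6, 26 cells (13.9%, 9.29 to 19.7%) held Slc17a6 without the GABA genes, 14 held both and 4 neither. Slc17a6 encodes the vesicular glutamate transporter of most glutamate neurons of the hypothalamus. The 14 cells with both had 2 to 46 GABA gene UMIs and 2 to 23 Slc17a6 UMIs, and none of them was called a doublet. Doublet calling marked 6 of the 187 cells (3.21%) and 2.68% of all P7 cells. The Gal-rule cells are therefore called Gal cells below, not GABA neurons.

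**Figure D2:**
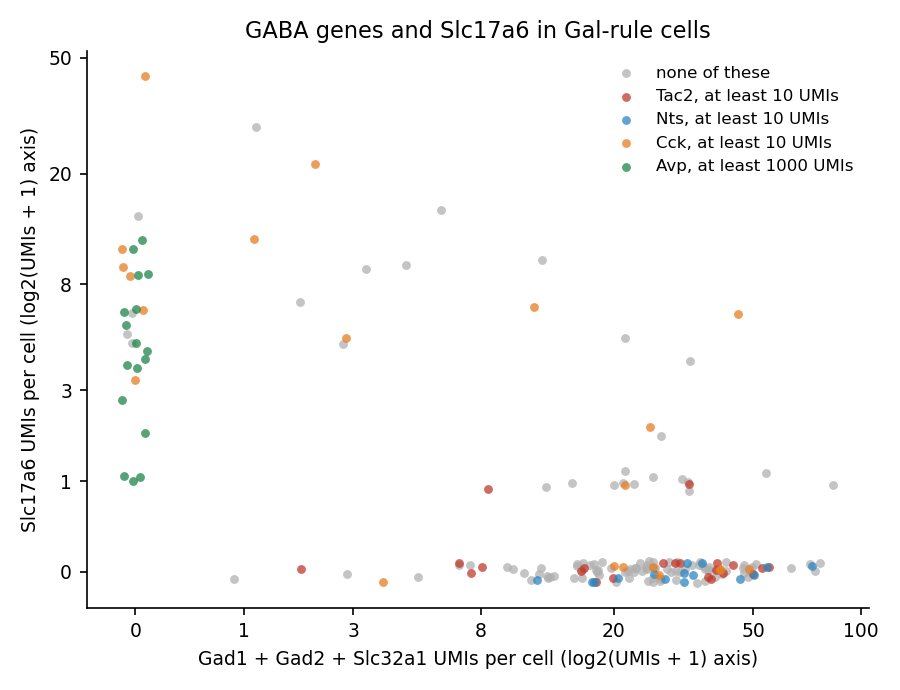
Summed UMIs of Gad1, Gad2 and Slc32a1 (x axis) against UMIs of Slc17a6 (y axis) in each of the 187 Gal cells, on log2(UMIs + 1) axes, with points spread slightly at random and coloured by a second peptide. The 17 Avp cells (green) lie at 0 GABA gene UMIs, while most Tac2 cells (red) and the Nts cells (blue) lie at the lower right.

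Besides Gal, 94 of the 187 cells held at least 10 UMIs of another neuropeptide gene, among 33 peptide genes measured, and 93 held none. A single further peptide was found in 66 cells, 2 in 20 cells and 3 in 8 cells. Tac2, which encodes neurokinin B, reached 10 UMIs in 22 cells, Cck (cholecystokinin) in 21, Avp (vasopressin) in 17, Nts (neurotensin) in 15, Pnoc (nociceptin) in 12, Tac1 (substance P) in 11 and Cartpt (the CART peptide) in 10. Penk (enkephalin) did so in 6 cells, Grp (gastrin-releasing peptide) in 5 and Npy (neuropeptide Y) in 4. Sst, Pomc, Vip, Crh and Kiss1 reached 10 UMIs in 0 of the 187 cells, while 101 P7 cells with Stmn2 held that much Sst and 90 that much Pomc. Only 16 P7 cells with Stmn2 held that much Vip, 11 that much Crh and 0 that much Kiss1. Gal cells were 4.32% of all P7 cells with at least 2 Stmn2 UMIs, so at that share only a few cells with any of these peptides would be Gal cells.

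Of the 22 Tac2 cells, 15 Nts cells, 21 Cck cells and 17 Avp cells, 0 cells belonged to 2 of these groups. Whether this is less overlap than groups of these sizes would give by chance was not tested. Other peptides did overlap with them. Cartpt was shared with Avp in 3 cells and with Nts in 2. Npy was shared with Cck in 2 cells, and Pdyn with Avp in 2. Nts was shared with Pnoc in 7 cells. Tac1 was shared with Cck in 6 cells and with Avp in 4. All 5 Grp cells, with 81 to 225 Grp UMIs, held both Tac1 and Cck. Because few cells held each peptide, single cells carry much of some totals: 1 cell held 93.2% of the Npvf UMIs of the group, 83.6% of the Trh UMIs and 36.7% of the Penk UMIs belonged to 1 cell each, and 5 cells held 96.1% of the Grp UMIs.

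Transmitter genes differed between these peptide groups. All 22 Tac2 cells held at least 2 GABA gene UMIs and 0 of them held 2 of Slc17a6, and the same counts for Nts were 15 of 15 and 0. All 12 Pnoc cells held the GABA genes as well. The Cck cells were mixed, with the GABA genes in 14 and Slc17a6 in 12 of 21. Of the 5 Grp cells, all 5 held at least 2 Slc17a6 UMIs, 1 held at least 2 GABA gene UMIs and 3 held none. Of all P7 cells with Stmn2 and at least 10 UMIs of a peptide, 22 of 74 (29.7%) were Gal cells for Tac2, against 15 of 141 (10.6%) for Nts and 21 of 478 (4.39%) for Cck. The same share was 18.5% for Grp, 12.8% for Pnoc, 8.94% for Tac1, 8.70% for Penk, 6.05% for Avp, 4.55% for Cartpt and 1.69% for Npy. Gal cells were 4.32% of all P7 cells with at least 2 Stmn2 UMIs, and the shares for Cck and Cartpt lie near that.

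The 17 Avp cells held none of the GABA genes. Avp, at chr2:130580620-130582554 on the minus strand (mm10), had 1525 to 9531 UMIs in these cells, with a median of 4585, and at most 8 in the other 170 Gal cells. All 17 held Slc17a6 (1 to 11 UMIs, median 4) and 0 of 17 held Gad1, Gad2 or Slc32a1. All 17 also held Otp (5 to 26 UMIs, median 11), a transcription factor needed for magnocellular and other neuroendocrine neurons, and 16 held Sim1, another factor of that lineage. Pdyn, the gene of dynorphin, was found in all 17 (2 to 19 UMIs, median 6) at 177 CPM (counts per 1000000 UMIs of the summed cells), against 16.9 CPM in the other 170. Oxt, whose sequence is close to that of Avp, had 1 to 19 UMIs in them, and how far the authors' counting separates the paralogs was not tested. Gal itself ran from 8 to 104 UMIs in the Avp cells, with a median of 16. At P7, 22 cells held at least 1000 Avp UMIs, and the 5 of them outside the rule held 0, 4, 5, 5 and 7 Gal UMIs. The minimum of 1000 leaves out many cells with less Avp. With the minimum of 10 UMIs used for the other peptides, 281 P7 cells with Stmn2 held Avp, and 17 of them (6.05%) were Gal cells. At least 1 Avp UMI was held by 142 of the other 170 Gal cells (83.5%) and by 81.0% of the 58 oligodendrocyte-marker cells, so these low counts are read as background.

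To describe the variety further, the 187 cells were grouped by Leiden clustering on genes outside all the gene lists used here, which gave 9 clusters. They are given by number and leading genes, and since every cell came from 1 sample they are descriptions. Leading genes outside the lists, Gpr50 among them, could themselves be used in the clustering. Their concentration in a cluster is therefore not independent of the grouping. Cluster 2 (28 cells) held 21 of the 22 Tac2 cells. Its Tac2 level was 2868 CPM, and it was led also by Gpr50, an orphan relative of the melatonin receptors, and by Ramp3, a receptor partner protein. All 28 of its cells held Gpr50, and 17 held at least 10 UMIs. Cluster 5 (22 cells) held 10 of the 15 Nts cells and 8 of the 12 Pnoc cells, and all of its cells held Isl1, a transcription factor gene, at 326 CPM. All 22 of its cells had at least 2 GABA gene UMIs.

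Cluster 1 (29 cells) was led by Lmo1, Pbx3, St18 and Nkx2-1 and held all 5 Grp cells. Nkx2-1, a transcription factor of the ventral hypothalamus, was at 190 CPM there and at 0 in cluster 2. Cluster 4 (26 cells, all with at least 2 GABA gene UMIs) was led by Pmaip1, Sox3 and Mef2c. It had the highest levels of Gch1, which encodes the first enzyme in making the cofactor of tyrosine hydroxylase (91.3 CPM), and of the monoamine transporter gene Slc18a2 (64.3 CPM), with Th, the gene of tyrosine hydroxylase, at 16.6 CPM. Th was highest in cluster 6 (21 cells; 103 CPM, 14 cells with a UMI), together with Npy (285 CPM) and the kappa opioid receptor gene Oprk1 (215 CPM). Of the 130 Npy UMIs of cluster 6, 81 lay in 1 cell, and 3 of its cells held at least 10. Cluster 3 (27 cells) was led by Nrgn, Calb2 and Slc17a6, and 14 of its cells held at least 2 Slc17a6 UMIs while 20 held the GABA genes. Cluster 7 (16 cells) consisted of Avp cells.

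Cluster 8 (11 cells) was led by Arhgap36 and Lrrc23, with the transcription factor gene Six3 at 595 CPM, and the summed ependymal markers reached 794 CPM there, against 27.0 to 70.9 CPM in the other clusters. Few cells carried this: 2 of its cells held at least 3 UMIs of Lrrc23, and 2 of the 187 Gal cells held over 1000 CPM of ependymal markers (median 28.1, highest 3920). Cluster 9 (7 cells, 3 of them called doublets) was led by Gfap, Slc1a3 and Apoe, and its astrocyte markers reached 2188 CPM, against 49.2 to 112 CPM elsewhere. At least 3 UMIs of Gfap were held by 1 of its cells, and of Slc1a3 and Apoe by all 7. In all, 16 of the 187 cells held over 1000 CPM of glial markers (median 218, highest 5299). The oligodendrocyte markers Mog and Mobp were at 0 in all 187 cells. Whether these cells hold RNA of 2 cells was not tested beyond the doublet calls.

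**Figure D3:**
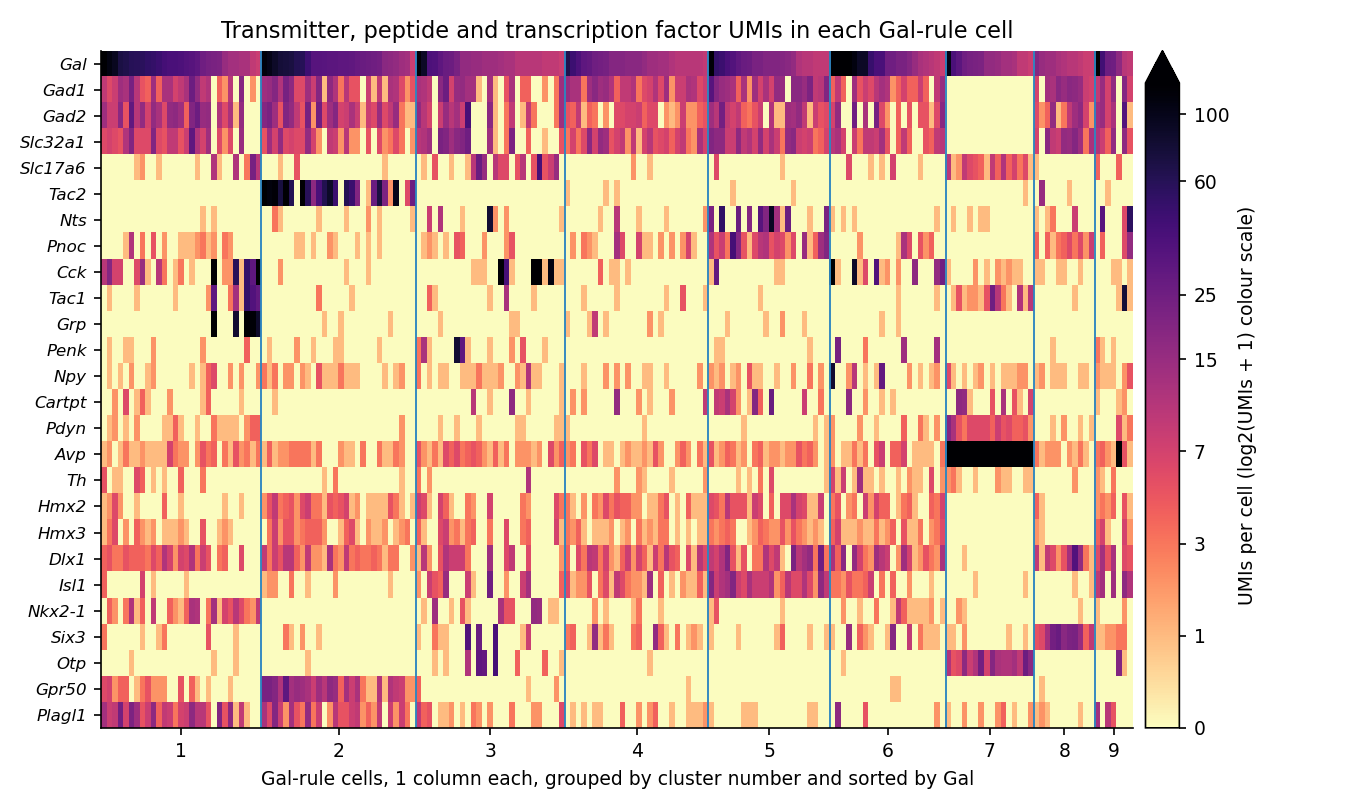
UMIs per cell (colour, log2(UMIs + 1) scale) of 26 genes (rows) in the 187 Gal cells (columns), grouped by cluster number and sorted by Gal within each cluster, with black for all counts beyond the scale. Tac2 and Gpr50 share cluster 2, Nts, Pnoc and Isl1 fill much of cluster 5, and the Avp cells of cluster 7 lack Gad1, Gad2, Slc32a1, Hmx2 and Hmx3.

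Levels were next compared with the 1458 other P7 neurons that held at least 2 GABA gene UMIs (other GABA neurons). With 1 sample there is no test between groups of its cells, and the comparison gives the ratio of summed levels after adding 5 CPM to each, over genes with at least 5 CPM in either group. Gal cells had 42 of 11741 genes (0.358%) higher by at least 2-fold and 99 (0.843%) lower, with a median log2 ratio over all genes of -0.03. Hmx2 and Hmx3, neighbouring homeobox genes known for their part in the fate of Ghrh neurons, were among the higher ones. Hmx2 (chr7:131548773-131558014) was at 86.0 CPM (exact Poisson 95% interval 77.8 to 94.8) in Gal cells and 19.7 CPM (18.1 to 21.4) in other GABA neurons, a log2 ratio of 1.88. Hmx3 (chr7:131542867-131544925) was at 67.3 CPM (60.1 to 75.1) against 19.1 CPM (17.5 to 20.9), a log2 ratio of 1.58. Both genes lie on the plus strand (mm10).

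Gal cells also had the highest shares of cells with these genes after thinning. At 5000 UMIs per cell, 33.5% of Gal cells held Hmx2 (95% interval 26.8 to 40.8%), against 7.35% of other GABA neurons, 16 of 113 Ghrh cells and 0.758% of Agrp cells. For Hmx3 the shares were 22.7% of Gal cells, 7.90% of other GABA neurons, 7.08% of Ghrh cells and 0 of 132 Agrp cells, which allows up to 2.27% by the limit of 3 counts (exact upper bound 2.76%). Unthinned, Hmx2 was found in 59.9% and Hmx3 in 63.6% of Gal cells (median depth 24518 UMIs), in 49.1% and 42.2% of Ghrh cells (26273.5 UMIs), and in 0 of the 58 oligodendrocyte-marker cells. Within the Gal cells both genes were missing from the Avp cells: Hmx2 was found in 112 and Hmx3 in 119 of the other 170 cells, and each in 0 of the 17.

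Of 39 transcription factor genes tested from a list of 47, Hmx2, Hmx3, Foxp2 and Sim1 were higher by at least 2-fold and 12 were lower, with a median log2 ratio of -0.17. Over all genes, 0.358% were higher and 0.843% lower. Foxp2, a forkhead factor, was at 34.1 against 14.3 CPM, a log2 ratio of 1.02 that fell under 2-fold with a Gal minimum of 5 (0.96) or 16 (0.78), as a mean of per-cell CPM (0.80) and without the Avp cells (0.76). Sim1 was at 18.5 against 4.36 CPM, and at 5.87 CPM without the Avp cells. The lower ones included Tbx3, a factor of Pomc and Agrp neurons, with 1 UMI in all 187 cells (0.213 against 60.1 CPM), and also Six6 (16.4 against 174 CPM) and Six3 (96.5 against 381 CPM), both of the anterior and ventral hypothalamus. Dlx1, a homeobox gene of GABA neurons, was at 198 against 122 CPM and missed the 2-fold limit. Its thinned share was 56.2% in Gal cells (95% interval 48.7 to 63.5%), 46.0% in Ghrh cells (36.6 to 55.6%), 29.0% in other GABA neurons and 0.758% in Agrp cells.

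Among 24 peptide genes tested, 5 were higher by at least 2-fold and 6 were lower, with a median log2 ratio of -0.12. The shares over all genes were 0.358% higher and 0.843% lower. Tac2 was at 323 against 46.7 CPM, Cck at 328 against 78.7 CPM, Grp at 152 against 6.23 CPM and Npvf at 72.2 against 0.660 CPM, the last from 4 cells with a UMI. With a Gal minimum of 16, the log2 ratio fell from 1.99 to 1.0 for Cck and from 3.81 to 2.51 for Grp, and that of Npvf turned from 3.77 to -1.62. With at least 2 GABA gene UMIs on both sides it was 1.2 for Cck and 2.0 for Grp. The fifth was Avp, at 17133 against 1409 CPM, and this ratio turned around without the 17 Avp cells, which left 87.3 CPM. Sst was at 13.6 against 568 CPM and Pomc at 10.9 against 381 CPM. The log2 ratio of Pomc, -4.61, was -2.04 with a Gal minimum of 5. Npy, Vip, Pmch and Nms were the other lower ones, and Nms had 0 UMIs in the Gal cells.

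Of all genes tested against other GABA neurons, 1.2% passed 2-fold in either direction. Of 23 hormone and peptide receptor genes tested, Htr2c, a serotonin receptor gene, was higher (28.1 against 9.31 CPM), Drd1, a dopamine receptor gene, was lower (3.41 against 14.3 CPM) and 21 lay within 2-fold, with a median log2 ratio of 0.09. Oprk1 was at 64.1 against 33.0 CPM and was found in 101 of the 187 cells. The prolactin receptor gene Prlr was at 35.8 against 30.0 CPM. Of the galanin receptors, Galr1 was found in 25 cells at 7.66 CPM (5.37 to 10.6), against 2.13 CPM (1.61 to 2.75). Its log2 ratio, 0.83, missed the 2-fold limit. Galr1 was at 18.2 CPM in the 17 Avp cells and 6.11 CPM in the other 170. Galr2 and Galr3 had 0 UMIs in the Gal cells. Of 14 peptide processing genes, 12 genes of mature and 8 of immature neurons tested, 0 passed 2-fold, which is near the share over all genes. Cpe, a carboxypeptidase gene, was at 697 against 758 CPM.

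Genes outside the lists with high ratios included Gpr50 (78.8 against 6.56 CPM), Pgr15l, an orphan receptor gene (52.8 against 9.24 CPM), the potassium channel genes Kcnk9 (62.0 against 12.9 CPM) and Kcnh1 (31.7 against 5.21 CPM), Fign (52.4 against 9.86 CPM), Plagl1, an imprinted zinc finger gene (122 against 39.0 CPM), Fam46a (135 against 47.1 CPM), C1ql2 (46.6 CPM, a log2 ratio of 1.68, with 26.0% of its UMIs in 1 cell) and Rgs10, a regulator of G protein signalling (193 against 75.6 CPM). Some of these belonged to the Avp cells: without them Fign was at 14.9 CPM and Kcnh1 at 9.04 CPM. Gpr50 belonged mostly to cluster 2, at 594 CPM there and 14.6 CPM in the other Gal cells. With 5 CPM added to each level, the latter is within 2-fold of other GABA neurons. That average does not describe cluster 1, where 16 of 29 cells held 50 Gpr50 UMIs (exact Poisson 95% interval 55.6 to 98.8 CPM). Cluster 3 held 7 UMIs, cluster 6 held 2, and clusters 4 and 8 held 1 each. When only the Gal cells with at least 2 GABA gene UMIs were kept, so that both sides met the same minimum, the log2 ratio was 3.18 for Gpr50, 2.21 for Hmx2, 1.91 for Hmx3 and 1.82 for Plagl1, and it was 0.38 for C1ql2, 0.14 for Fign, 0.53 for Kcnh1 and -0.38 for Sim1. Oligodendrocyte precursor markers, which the comparison group holds too, were lower in Gal cells (128 against 303 CPM summed), and 4 of the 5 passed 2-fold. The median cell did not differ in this way (59.0 against 57.4 CPM). Over 1000 CPM was held by 8 of the 187 Gal cells and 120 of the 1458 others.

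**Figure D4:**
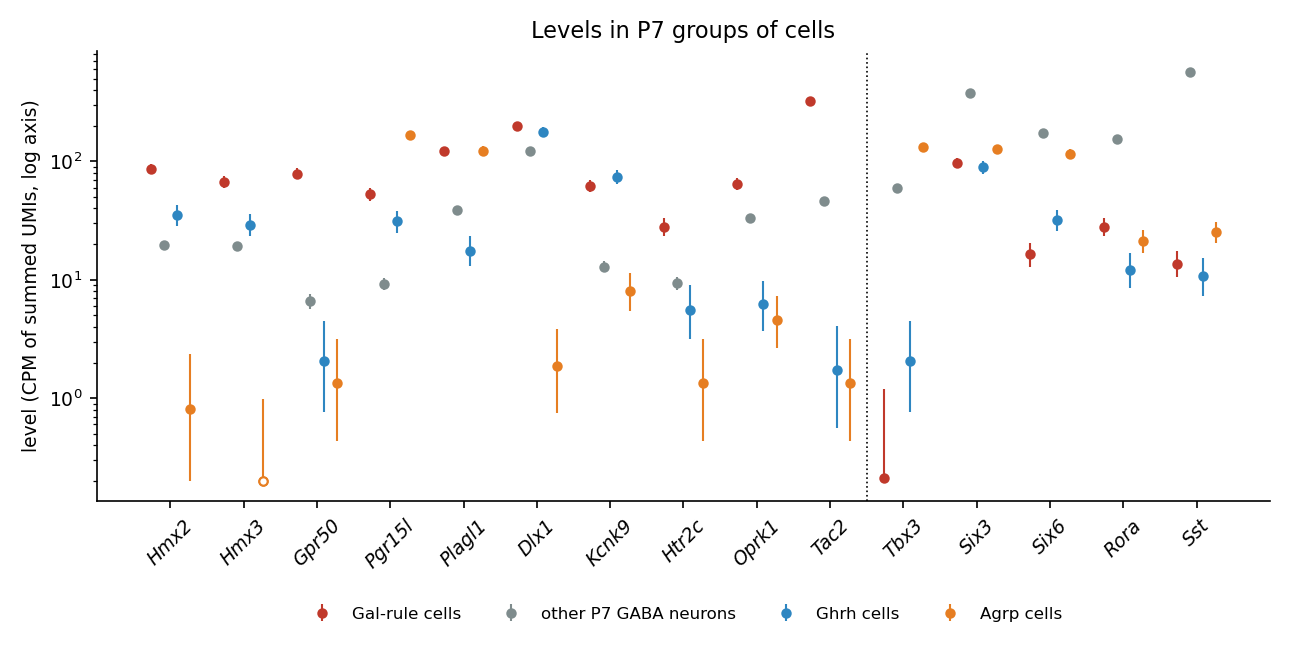
Level (CPM of summed UMIs, log axis) of 15 genes in Gal cells, other P7 GABA neurons, Ghrh cells and Agrp cells, with exact Poisson 95% intervals that cover counting error only; the open point is a level of 0 drawn at 0.2 CPM, and interval ends below that are not drawn. Genes left of the dotted line were at a higher level in Gal cells than in other GABA neurons, and genes right of it at a lower level.

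Against all 3897 other P7 neurons, 64 of 12393 genes (0.516%) were higher and 801 (6.46%) lower by at least 2-fold, with a median log2 ratio of -0.08. Gad1, Gad2 and Slc32a1 were among the higher genes, with log2 ratios of 1.43 for Gad1 and 1.76 for Gad2 and a Slc32a1 level of 279 against 95.3 CPM, beside Hmx2 (2.53), Gpr50 (2.42), Hmx3 (2.28), Dlx1 (1.76) and Htr2c (1.61). With at least 10 Stmn2 UMIs, the log2 ratio was 1.03 for Gad1, 1.36 for Gad2 and 1.08 for Slc32a1. Without the cells over 1000 CPM of glial markers, it was 1.02, 1.31 and 1.06 in that order. The lower genes were led by Pomc (log2 ratio -3.75, or -1.19 with a Gal minimum of 5) and, after it, by genes of glia such as Bcas1, Olig2 and Slc1a3. With at least 10 Stmn2 UMIs, Olig2 (log2 ratio -0.60) and Slc1a3 (-0.35) lay within 2-fold. Without the cells over 1000 CPM of glial markers, a limit that itself uses Olig2 and Slc1a3, Bcas1 was at -0.60, while Nfia (-1.53), Nfib (-1.98) and Sall3 (-2.19) stayed past 2-fold. Of the 3897 cells, 43.9% held over 1000 CPM of glial markers, against 8.56% of the Gal cells. With a minimum of 10 Stmn2 UMIs on both sides, chosen after the values were seen, 1.24% of genes passed 2-fold in either direction, in place of 6.98%. Hmx2 was at 14.8 CPM in other neurons under that minimum.

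Gal was at 1973 CPM in the Ghrh cells, whose choice did not use it, and at 1319 CPM in the Gal cells, which were chosen by it. Between these groups 422 of 11640 genes (3.63%) were higher in Gal cells by at least 2-fold and 263 (2.26%) lower. All 4 GABA genes tested lay within 2-fold. Of 12 listed genes of monoamine and acetylcholine neurons, 7 were tested, of which Gch1 was higher and Th, Ddc, Chat and Slc18a3 lower, with a median log2 ratio of -1.44. Th was at 28.7 CPM in Gal cells and 431 CPM in Ghrh cells, and its thinned share was 10.3% against 80.5%. Ddc, which encodes the next enzyme of dopamine synthesis, was at 24.7 against 75.5 CPM, and Chat, of acetylcholine synthesis, had 0 UMIs in Gal cells and 22.9 CPM in Ghrh cells.

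Transcription factors differed from those of Ghrh cells in both directions, with 16 of 31 tested genes higher by at least 2-fold, 5 lower and a median log2 ratio of 1.01, against 0.02 over all genes. Nkx2-1 was at 53.9 against 7.62 CPM. Otp was at 76.4 against 21.5 CPM, but at 32.0 CPM without the Avp cells, which is within 2-fold. Gsx1, a homeobox gene that Ghrh neurons need, was at 4.05 against 161 CPM, Foxp2 at 34.1 against 174 CPM and Prox1 at 35.8 against 181 CPM. Of 27 receptor genes, 5 were higher and 8 lower, beside 3.63% higher and 2.26% lower over all genes. The lower ones included receptors for growth hormone (Ghr, 16.4 against 121 CPM), ghrelin (Ghsr, 1.49 against 15.6 CPM) and oestrogen (Esr1, 6.81 against 76.2 CPM). Prlr (35.8 against 5.89 CPM) and Oprk1 (64.1 against 6.23 CPM) were among the higher.

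The same counts were sought at the other ages, each of which is also 1 sample. Of the cells with at least 2 Stmn2 UMIs, those meeting the rule were 10 (0.341%) in the E11 sample, 37 (0.247%) in the E14 sample, 131 (1.36%) in the P0 sample and 187 (4.32%) in the P7 sample. The Gal level of all cells with Stmn2 was 7.63, 16.9, 44.2 and 169 CPM in that order. Cells of the rule held 31.4%, 18.2%, 48.5% and 47.5% of these Gal UMIs. Cells with at least 8 Gal and 10 Ghrh UMIs, which the rule leaves out, numbered 0, 2, 16 and 101, and at P7 the Ghrh cells held 5696 of the 13033 Gal UMIs. Depth differs between ages. A thinned share was therefore taken at 5000 UMIs per cell: cells with at least 3 Gal UMIs and within the unthinned Ghrh and Agrp limits. Of all cells with Stmn2, Ghrh cells included, it was 0.241%, 0.423%, 1.97% and 3.38%. Cell names before P7 carry a run number, 1 or 2, whose meaning the labels do not give, and the runs did not give the same values. At P0 this thinned share was 4.58% in run 1 (95% interval 3.52 to 5.84%) and 1.52% in run 2 (1.26 to 1.82%), so that run 1 of P0 lay above P7 (2.85 to 3.97%) with overlapping intervals. The Gal level at P0 was 89.4 CPM in run 1 (1720 cells with Stmn2) and 37.9 CPM in run 2 (7946 cells), and at E11 and E14 run 1 held 0 cells of the rule among 191 and 301. Age cannot be told apart from sample. P7 shared 9, 43 and 20 cell barcodes with the second runs of E11, E14 and P0, and 1 of the 187 Gal cells carried a shared one.

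**Figure D5:**
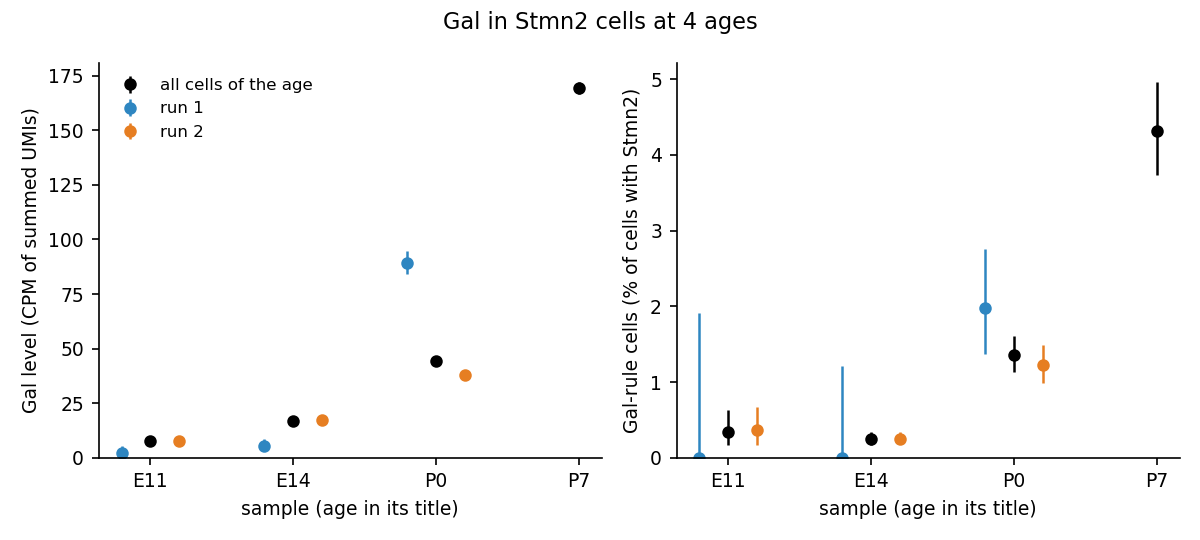
Left, Gal level in cells with at least 2 Stmn2 UMIs (CPM of summed UMIs, exact Poisson 95% intervals); right, cells that met the Gal rule as a percentage of those cells (exact Clopper-Pearson 95% intervals), for each age (black) and each run (blue and orange). The P7 values, 169 CPM and 4.32%, lie above those of the 3 earlier ages and of each of their runs.

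Cells that met the rule differed in their other genes by age. At E11, 2 of 10 held at least 2 GABA gene UMIs and 7 held 2 of Slc17a6. At E14, 28 of 37 held the GABA genes and 2 held 2 of Slc17a6, while Hmx2 was found in 27 and Dlx1 in 30. At P0, the GABA genes were held by 86 of 131 cells (65.6%, 95% interval 56.9 to 73.7%; 23 of 34 in run 1 and 63 of 97 in run 2), against 157 of 187 (84.0%, 77.9 to 88.9%) of the P7 cells, and the median cell held 13877 UMIs at P0 and 24518 at P7. At least 1000 Avp UMIs were held by 0 cells at E11 and E14, 11 at P0 (3 and 8 by run) and 17 at P7. Tac2 at 10 UMIs was found in 0 cells at E11 and E14, 5 at P0, all of run 2, and 22 at P7. Nts reached 10 UMIs in 6 of the cells at E14 and 8 at P0, all 8 of run 2.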

How the data were processed

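The deposited table holds UMI counts per gene and cell for the whole series; per the file headers, cell names give the age and, before P7, a run number. All 43261 cells matched 1 of the 4 samples, and 0 value columns were left unmatched. The submitters' processing notes name Cell Ranger 3.0.2, Seurat and mm10, without the role of each. Cells had been filtered before deposit: genes per cell ran from 2001 to 7998. The deposited counts were whole numbers, with 0 exceptions, and were used as they stand.

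The members and gene lists were chosen with earlier results of these data known. Counts were summed per group of cells and scaled to CPM (Python 3.11.15, numpy 2.4.6, scipy 1.17.1). Ratios used CPM + 5. Named genes were the members of 20 gene lists and, for the comparisons with other neurons and other GABA neurons, the 15 highest and 10 lowest ratios among genes found in at least 20% of the cells of the higher group, without the genes of the rule, mitochondrial, ribosomal and unnamed genes. Genes outside these were named only as leading genes of a cluster. Doublets were called with Scrublet in scanpy 1.11.5 and kept. Clustering used 1000 variable genes outside the lists, 15 components, 12 neighbours and resolution 1 (leidenalg 0.10.2). The ratio calculation was tested on simulated data. Alternatives were other minimums of Gal and Stmn2, doublets left out, 1 CPM added, no minimum level, means over cells and single runs.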

Additional observations from a re-analysis of the deposited data

How the results depend on the processing

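The number of cells meeting the rule was 118 with at least 16 Gal UMIs, 64 when cells were first thinned to 5000 UMIs and 288 without limits on Ghrh and Agrp. The thinned share with a GABA gene was 87.29% with at least 16 Gal UMIs and 89.88% without the Avp cells. The share of genes past 2-fold against other P7 neurons, 6.98%, was 12.04% with 1 CPM added, 3.43% with no minimum level, 1.44% and 1.24% with at least 5 and 10 Stmn2 UMIs, and 1.36% without cells over 1000 CPM of glial markers. Against other GABA neurons, 1.2%, it was 2.62% with 1 CPM added and 0.59% with no minimum. The Gal level was 2.1 CPM in run 1 and 9 CPM with at least 5 Stmn2 UMIs at E11; 5.5 CPM in run 1, 15.9 CPM as a mean over cells and 17.6 CPM with 5 Stmn2 UMIs at E14; 89.4 and 37.9 CPM in runs 1 and 2, 42 CPM as a mean and 52.1 CPM with 5 Stmn2 UMIs at P0; 131.7 CPM as a mean and 211.2 CPM with 5 Stmn2 UMIs at P7.

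The 72 ratios of named genes past 2-fold against other neurons or other GABA neurons were varied, giving 767 values. Of these values, 725 stayed past 2-fold, 37 moved under it and 5 turned around. Those 5 were Avp without the Avp cells (log2 -2.93 against other neurons, -3.94 against other GABA neurons), Avp and Sim1 with 2 GABA gene UMIs on both sides (-3.95 and -0.38) and Npvf with at least 16 Gal UMIs (-1.62), which moves the cell with most Npvf to the other side. All 72 ratios stayed past 2-fold with 1 CPM added and with no minimum level, but neither change can bring a ratio under 2-fold. Ratios against Ghrh and Agrp cells were not varied. Leaving out glial-marker cells, Avp cells, and the minimums of 10 Stmn2 UMIs and of GABA genes on both sides were chosen after seeing the data. No paired analysis was possible because each age had 1 sample. Depth limits the low genes: 0 UMIs of a gene in the Gal cells have an exact Poisson upper bound of 0.785 CPM.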

Other observations

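Agrp cells, the peptide group named by the rule's other limit, held the GABA genes like most Gal cells but had other peptide and transcription factor genes. Npy was at 62.8 CPM in the Gal cells and 15192 CPM in the Agrp cells, and Tbx3 at 0.213 and 131 CPM. Dlx1 was at 198 CPM in the Gal cells and 1.88 CPM in the Agrp cells, and Dlx2 at 71.3 and 0.805 CPM. Otp was at 32.0 CPM in the Gal cells without the Avp cells and at 559 CPM in the Agrp cells. Some genes that set the Gal cells apart from other GABA neurons were as high or higher in Agrp cells: Pgr15l was at 52.8 and 166 CPM, and Plagl1 at 122 and 123 CPM. Each of these values is a sum over cells of the same P7 sample, with no test between them.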
